A study of Homo sapiens with 18 samples.

Results

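The transcript changes described here are those between HMC3 cells given 50 µg/ml of oxidized low-density lipoprotein (oxLDL) and HMC3 cells given none. HMC3 is an immortalized human cell line used as a model of microglia, the resident macrophages of brain and retina. Of 13992 genes in the deposited table, 11841 had an FPKM (fragments mapped per transcript length and library size) of 0.5 or more in 3 or more of the 6 libraries and were tested. The other 2151 fell below that level. Both groups were wild-type HMC3 cells in MEM with 10% fetal bovine serum, exposed for 24 h, and each was represented by 3 libraries. The full dose series holds 18 libraries, 3 each at 0, 1, 2.5, 10, 50 and 100 µg/ml, and its title concerns CD36, lipid storage in reactive microglia, NLRP3 and IL-1β. Separate cultures are not stated for the replicates in the labels, so p-values reflect library-to-library spread alone, which may be technical.

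OxLDL carries oxidized phospholipids, oxidized sterols and cholesterol esters into cells through scavenger receptors. Reactive lipids modify cysteines of KEAP1, which frees the transcription factor NRF2 to drive genes of glutathione, thioredoxin, NADPH and heme metabolism through antioxidant response elements. Cholesterol released from the particle holds the SREBP2 precursor in the endoplasmic reticulum together with INSIG proteins, which lowers transcription of sterol synthesis genes, and fatty acids are ligands of PPAR receptors.

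Read totals recovered from the FPKM steps were 20534475, 26977887 and 27876179 for the untreated libraries and 32834978, 24639832 and 18972658 for the treated ones, in replicate order. Libraries of the same dose differed on average by 0.087 to 0.112 in log2(FPKM + 0.5) over the tested genes, and libraries of different doses by 0.118 to 0.156. Replicate 3 at 50 µg/ml, the shallowest of the 6, was the library farthest from the mean at 0 µg/ml for 510 of 903 called genes (56.5%), against 231 for replicate 1 and 162 for replicate 2. Without it 476 genes were called, and without replicate 1 at 0 µg/ml 460. Among 33 marker genes for microglia and macrophages, 7 were among the listed symbols and 6 were tested. P2RY12, TMEM119, CX3CR1, CSF1R, AIF1, PTPRC, SPI1 and TREM2 were not among the listed symbols, so the label of microglia rests on the name of the line and not on these defining markers.

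At a Benjamini-Hochberg adjusted p under 0.05 in limma, 903 of the 11841 genes (7.63%) differed between 50 and 0 µg/ml. Of these, 454 (3.83% of genes tested) were higher and 449 (3.79%) were lower at 50 µg/ml, and 2630 genes had an unadjusted p under 0.05. The differences were mostly small. The median absolute log2 fold of called genes was 0.25, 104 reached 0.5 (52 up, 52 down), and 9 reached 1, of which 8 were rises. For 899 of the 903 called genes the 3 libraries of one dose lay wholly above the 3 of the other, as did 28.4% of all tested genes. Calls were more frequent among abundant genes, with 352 of 2960 called above a mean of 20.8 FPKM (11.9%) and 114 of 2961 below 2.17 FPKM (3.85%). Median limma standard errors (SE) in those classes were 0.042 and 0.097. All log2 folds here are differences in log2(FPKM + 0.5), which understates changes of genes near or below 0.5 FPKM.

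**Figure D1:**
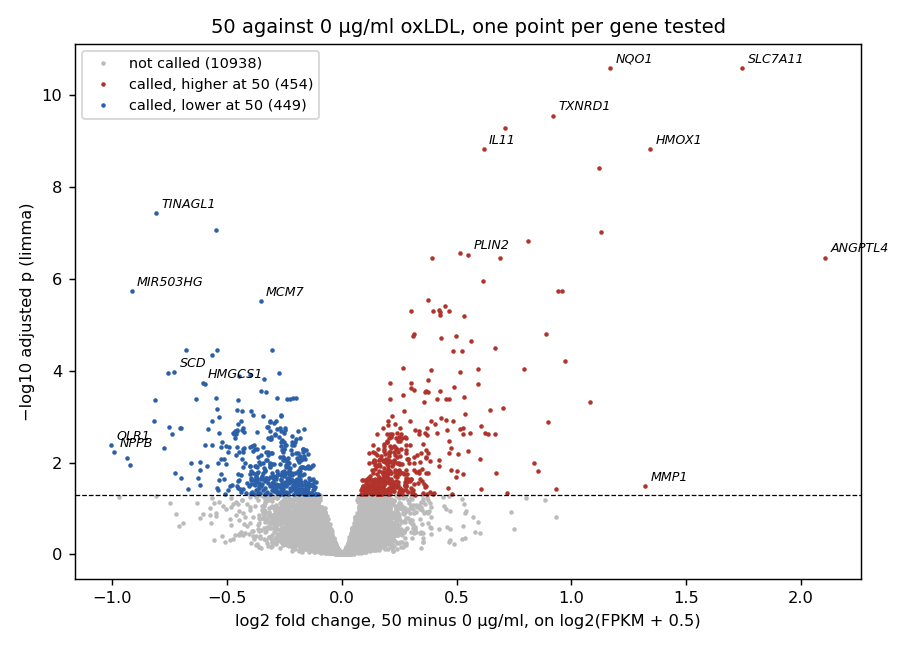
Difference between 50 and 0 µg/ml for each of 11841 tested genes, with the log2 fold on the horizontal axis and −log10 of the adjusted p on the vertical axis, where the dashed line marks an adjusted p of 0.05. The 454 called rises reach further from 0 than the 449 called falls, with ANGPTL4 at the right edge and SLC7A11 and NQO1 at the top.

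ANGPTL4 rose most. Its product is secreted and blocks lipoprotein lipase, and the gene is a classical PPAR target (hg38 chromosome 19, 8364155 to 8374370). Its FPKM was 0.303, 0.231 and 0.149 in the 3 untreated libraries and 2.08, 2.25 and 3.77 in the 3 treated ones. Replicate 3 was the highest of the treated libraries. All 3 untreated values were below the FPKM level of the filter, so the gene was tested only because all 3 treated ones passed it. Separation of the doses was thus a condition of being tested and adds no support. The ratio of mean FPKM was 11.9 (log2 fold 2.11, SE 0.16, adjusted p = 3.43e-07). This ratio is uncertain because the untreated baseline was near the floor, and the lowest read count among the 6 libraries was 8. The gene lies across from RAB11B-AS1, and the named library kit does not mark strand, so reads of the pair cannot be told apart.

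Beside ANGPTL4 and the NRF2 targets described next, the 12 largest rises held genes of the cell surface and matrix. Genes with overlapping groups were left out of this ranking, so separation of the doses was a condition of being named. SERPINE2, a secreted inhibitor of thrombin and plasminogen activators (chromosome 2, 223975045 to 224039286), had 24.9, 29.5 and 26.5 FPKM untreated and 54.7, 52.9 and 65.5 FPKM treated (log2 fold 1.08, SE 0.16, adjusted p = 0.000479). The treated libraries were all above the untreated ones, with replicate 3 again highest. HAS2, which makes hyaluronan, rose from 2.57 ± 0.11 to 5.54 ± 0.42 FPKM (SD, n = 3; log2 fold 0.97, SE 0.12, adjusted p = 6.12e-05). SMOC1, a calcium-binding matrix protein (chromosome 14, 69879416 to 70032366), rose from 1.39 ± 0.081 to 3.13 ± 0.37 FPKM (log2 fold 0.94, SE 0.082, adjusted p = 1.84e-06). MMP1, interstitial collagenase (chromosome 11, 102789919 to 102798160), had 18.8, 26.99 and 20.03 FPKM without oxLDL and 50.5, 47.02 and 69.8 FPKM with 50 µg/ml. Its groups did not overlap, but the treated libraries spread widely (log2 fold 1.32, SE 0.36, adjusted p = 0.0329). The MMP1 call was lost in 6 of 18 other settings, among them without untreated replicate 1 or 3 or any 1 treated replicate (highest adjusted p = 0.140).

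The largest fall was in OLR1 (chromosome 12, 10158301 to 10176266), which encodes LOX-1, the lectin-like receptor of oxLDL itself. Its FPKM was 3.05, 2.40 and 3.36 untreated and 1.38, 1.38 and 0.888 treated. Treated replicate 3 was the lowest (log2 fold -1.01, SE 0.19, adjusted p = 0.00420). Genes with overlapping groups were left out of the ranking of falls, so separation of the doses was a condition of being named. NPPB, the precursor of B-type natriuretic peptide (chromosome 1, 11857464 to 11858945), had 74.3, 61.5 and 74.5 FPKM in the untreated libraries and 38.03, 38.1 and 29.1 FPKM in the treated ones (log2 fold -0.99, SE 0.20, adjusted p = 0.00597). Its treated libraries were all lower, replicate 3 most so. MDGA1, a membrane-anchored adhesion protein (chromosome 6, 37630679 to 37697883), fell from 8.56 ± 0.72 to 4.25 ± 0.47 FPKM (log2 fold -0.93, SE 0.20, adjusted p = 0.00796). The long noncoding RNA MIR503HG, host transcript of a microRNA cluster on the X chromosome, fell from 19.4 ± 0.94 to 10.1 ± 1.4 FPKM (log2 fold -0.92, SE 0.080, adjusted p = 1.84e-06).

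TINAGL1, a secreted basement membrane protein (chromosome 1, 31576515 to 31587686), had the smallest adjusted p of all falls. It had 36.8, 37.1 and 38.2 FPKM untreated and 21.2, 21.1 and 21.1 FPKM treated, so that each group was tight and the groups were well apart (log2 fold -0.81, SE 0.052, adjusted p = 3.71e-08). MEGF6, a secreted protein with EGF-like repeats, fell from 2.76 ± 0.18 to 1.35 ± 0.094 FPKM (log2 fold -0.81, SE 0.12, adjusted p = 0.000437). RNF207, HOXB-AS1 and ELF3 share their locus with listed genes on the opposite strand, so their values are uncertain. RNF207 (log2 fold -0.82, adjusted p = 0.00122) overlaps ICMT and RPL22. The antisense transcript HOXB-AS1 (log2 fold -0.75, adjusted p = 0.00166) overlaps HOXB2 and HOXB3, and ELF3, an epithelial transcription factor (log2 fold -0.74, adjusted p = 0.00238), overlaps ELF3-AS1. The remaining large falls, EGR1, INSIG1 and SCD, are described with their pathways.

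**Figure D2:**
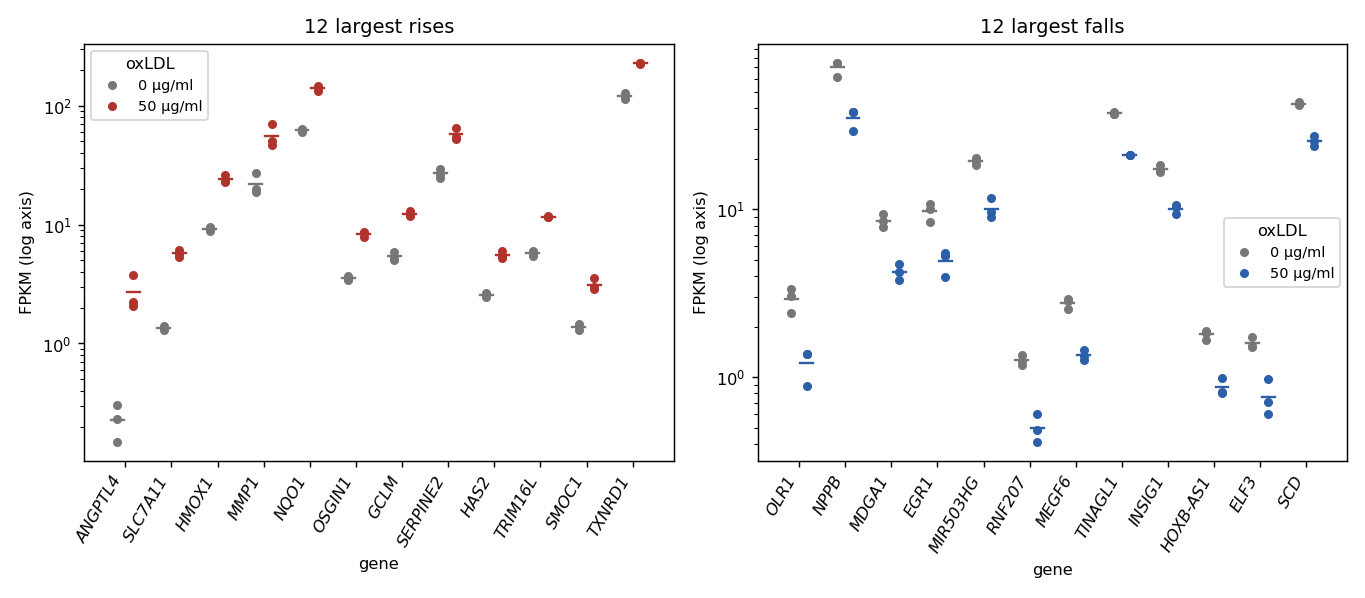
FPKM of the 12 largest rises (left) and 12 largest falls (right) named by the rule, on a log axis, with 1 point per library and a bar at the mean of 3. Genes whose groups overlap were left out by the rule. The treated libraries of ANGPTL4 (2.08 to 3.77) all lie above its untreated ones (0.149 to 0.303), which are below the FPKM level of the filter.

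Most NRF2 targets rose. In 3 lists of NRF2 targets that hold 44 genes in all, 35 were tested, 21 rose and 1 fell, with a median log2 fold of 0.37, beside 3.83% rising and a median of 0.0045 over all genes tested. Between 17 and 19 of them rose when any 1 library was left out. The lists were drawn up with earlier results of these data known.

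In the glutathione and cystine list 3 of 8 tested members rose and 0 fell. SLC7A11, the light chain of the exchanger that imports cystine for glutathione synthesis (chromosome 4, 138164097 to 138242349), had 1.35, 1.42 and 1.31 FPKM without oxLDL and 5.38, 5.64 and 6.15 FPKM with 50 µg/ml. Its treated libraries were 4.22 times higher on average, with little spread in either group (log2 fold 1.74, SE 0.063, adjusted p = 2.56e-11). GCLM, the modifier subunit of glutamate-cysteine ligase, which begins glutathione synthesis (chromosome 1, 93885199 to 93909430), had 5.04, 5.88 and 5.25 FPKM in the untreated libraries and 11.7, 12.1 and 13.1 FPKM in the treated ones (log2 fold 1.12, SE 0.061, adjusted p = 3.83e-09). GSR, which returns oxidized glutathione to its reduced form, rose from 13.7 ± 0.67 to 19.8 ± 0.48 FPKM (log2 fold 0.52, SE 0.038, adjusted p = 2.74e-07). The catalytic subunit of the first step, GCLC, had 10.6 ± 0.51 and 11.8 ± 0.43 FPKM and did not pass the test (log2 fold 0.14, SE 0.061, adjusted p = 0.171). The 2 subunits of that enzyme thus had log2 folds of 1.12 and 0.14, and the difference between them was not tested.

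In the list of thioredoxin and NADPH supply 8 of 11 tested members rose and 1 fell (6 to 7 rose without any 1 library). TXNRD1, the selenoenzyme that reduces thioredoxin (chromosome 12, 104215779 to 104350307), had 119, 127 and 114 FPKM untreated and 229, 224 and 227 FPKM treated (log2 fold 0.92, SE 0.040, adjusted p = 2.78e-10). Its treated libraries agreed to within a few FPKM and lay far above the untreated ones. SRXN1, which repairs overoxidized peroxiredoxins, rose from 25.04 ± 0.90 to 33.9 ± 0.99 FPKM (log2 fold 0.43, adjusted p = 6.16e-06). Enzymes of the pentose phosphate pathway, which supplies NADPH, were among the risers. TALDO1 rose from 206 ± 9.6 to 267 ± 5.0 FPKM (log2 fold 0.37, adjusted p = 2.83e-06) and TKT from 173 ± 4.2 to 214 ± 8.0 FPKM (log2 fold 0.30, adjusted p = 0.000185). ME1, malic enzyme and another source of NADPH, rose from 1.71 ± 0.19 to 2.69 ± 0.033 FPKM (log2 fold 0.53, adjusted p = 0.000364). The member that fell was IDH1, the cytosolic isocitrate dehydrogenase that also makes NADPH, from 33.2 ± 1.2 to 26.7 ± 1.4 FPKM (log2 fold -0.31, SE 0.056, adjusted p = 0.00277). Further risers were thioredoxin itself, TXN (log2 fold 0.20, adjusted p = 0.0377), whose call was lost in 8 of 18 other settings, among them without untreated replicate 1 or 2 or treated replicate 1 or 2 (highest adjusted p = 0.149), and the peroxiredoxin PRDX1 (log2 fold 0.16, adjusted p = 0.0258), whose call was lost in 5 of 18 other settings, among them without untreated replicate 1 or 3 or treated replicate 1 or 3 (highest adjusted p = 0.0991).

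In the list of heme, iron and detoxification 10 of 16 tested members rose and 0 fell (8 to 9 rose without any 1 library), with a median log2 fold of 0.52. HMOX1, heme oxygenase 1, which degrades heme (chromosome 22, 35381096 to 35394207), had 9.20, 9.53 and 8.81 FPKM without oxLDL and 23.00, 23.03 and 26.2 FPKM with 50 µg/ml. The groups were well apart, with a ratio of means of 2.62 (log2 fold 1.34, SE 0.068, adjusted p = 1.49e-09). NQO1, a quinone reductase (chromosome 16, 69709401 to 69726560), had 63.6, 59.8 and 62.8 FPKM in the untreated libraries and 147, 141 and 132 FPKM in the treated ones. It shared the smallest adjusted p of the comparison with SLC7A11 (log2 fold 1.17, SE 0.043, adjusted p = 2.56e-11). The oxidative stress-induced growth inhibitor OSGIN1 (chromosome 16, 83953240 to 83966332) rose from 3.55 ± 0.14 to 8.35 ± 0.39 FPKM (log2 fold 1.13, SE 0.078, adjusted p = 9.50e-08), and UGDH, which makes UDP-glucuronate for detoxification (chromosome 4, 39498755 to 39527439), rose from 19.8 ± 0.44 to 32.6 ± 1.1 FPKM (log2 fold 0.71, SE 0.033, adjusted p = 5.00e-10). UGDH overlaps UGDH-AS1 on the opposite strand. The paralogs TRIM16 (log2 fold 0.81) and TRIM16L (0.96) both rose, but they are near-identical and their reads cannot be assigned to either with certainty. EPHX1, an epoxide hydrolase, rose from 16.8 ± 1.1 to 22.2 ± 0.89 FPKM (log2 fold 0.39, adjusted p = 0.00122).

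Of 9 tested regulators and partners of NRF2 2 rose and 0 fell (22.2% called, against 7.63% of all tested genes). MAFF (from 15.2 ± 1.0 to 20.4 ± 0.99 FPKM, log2 fold 0.41, adjusted p = 0.00146) and MAFG (from 7.15 ± 0.38 to 9.28 ± 0.30 FPKM, log2 fold 0.35, adjusted p = 0.00387), small MAF proteins that pair with NRF2 on DNA, were the 2 that rose. NFE2L2, the gene of NRF2, had 31.3, 32.6 and 32.5 FPKM untreated and 30.5, 31.7 and 31.3 FPKM treated, with overlapping groups (log2 fold -0.043, adjusted p = 0.476; 0.0376 with the libraries at 1 and 2.5 µg/ml pooled as baseline). KEAP1, which targets NRF2 for degradation (log2 fold 0.12, adjusted p = 0.0684), and BACH1, a repressor at the same DNA elements (log2 fold 0.11, adjusted p = 0.306), did not pass the test.

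The promoters of the NRF2 targets with the smallest adjusted p, and of 2 sterol synthesis genes described below, are shown because these pathways are known by DNA motifs that were searched in them. Each runs 5′ to 3′ on the gene's strand from 250 bases before to 50 bases after the annotated start, 300 bases in all, from the RefSeq promoter table (GRCh38.p14). Capitals mark matches to the antioxidant response element as TGACNNNGC, searched on both strands. This pattern also takes in an AP-1 site (TGACTCA) that is followed by GC. SLC7A11 and HMOX1 had no entry in the table. The windows are chr12:104215529-104215828 on the plus strand for TXNRD1, and on the minus strand chr16:69726511-69726810 for NQO1, chr4:39527390-39527689 for UGDH and chr1:93909381-93909680 for GCLM.
TXNRD1: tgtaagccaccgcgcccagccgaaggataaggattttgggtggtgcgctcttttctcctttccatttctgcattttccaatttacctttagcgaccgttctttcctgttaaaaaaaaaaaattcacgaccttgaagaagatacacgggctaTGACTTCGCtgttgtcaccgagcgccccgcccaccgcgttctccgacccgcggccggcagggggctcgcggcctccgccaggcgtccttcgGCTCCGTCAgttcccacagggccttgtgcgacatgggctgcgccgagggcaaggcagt
GCLM: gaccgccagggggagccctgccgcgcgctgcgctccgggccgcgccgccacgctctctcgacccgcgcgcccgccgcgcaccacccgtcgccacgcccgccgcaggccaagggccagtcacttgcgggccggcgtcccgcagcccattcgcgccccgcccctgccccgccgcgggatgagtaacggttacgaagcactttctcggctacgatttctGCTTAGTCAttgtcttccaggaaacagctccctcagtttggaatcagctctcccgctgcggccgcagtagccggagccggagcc
NQO1: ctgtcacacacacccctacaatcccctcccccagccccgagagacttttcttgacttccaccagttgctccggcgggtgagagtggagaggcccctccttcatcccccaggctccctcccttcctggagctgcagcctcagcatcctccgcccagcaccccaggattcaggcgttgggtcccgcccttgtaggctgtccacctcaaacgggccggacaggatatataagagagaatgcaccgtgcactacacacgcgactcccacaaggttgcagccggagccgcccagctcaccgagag
UGDH: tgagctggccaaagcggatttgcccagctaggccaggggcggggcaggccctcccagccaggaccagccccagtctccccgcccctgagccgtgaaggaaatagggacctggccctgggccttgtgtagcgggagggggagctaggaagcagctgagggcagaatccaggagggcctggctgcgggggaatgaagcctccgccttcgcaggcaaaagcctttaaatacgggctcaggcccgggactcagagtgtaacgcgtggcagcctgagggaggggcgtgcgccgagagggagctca

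TXNRD1 held 2 matches, which began 99 and 8 bases before its start, and GCLM held 1, which began 34 bases before its start. NQO1 and UGDH held 0 in this window. Of the 25 tested NRF2 targets with a promoter in the RefSeq set, 6 held a match (24%), namely TXNRD1, GCLM, ME1, PIR, CBR1 and PGD. Over genes called in this comparison, 94 of 353 promoters of rising genes held a match (26.6%), against 54 of 343 of falling genes (15.7%), 1282 of 8623 of genes not called (14.9%) and 3702 of all 27305 promoters in the table (13.6%). A match is a description of the letters in this window and not evidence of binding. PIR and CBR1 rose by log2 folds of 0.50 and 0.15, and PGD had 0.053 and did not pass the test (adjusted p = 0.359). The PIR call was lost in 4 of 18 other settings, among them without untreated replicate 2 or treated replicate 1 or 3 (highest adjusted p = 0.0968). The CBR1 call was lost in 10 of 18 other settings, among them without any 1 untreated replicate or treated replicate 1 or 2 (highest adjusted p = 0.163).

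Of 16 tested members of the iron and ferroptosis list 3 rose and 1 fell (25% called, against 7.63% of all tested genes), and limma-voom called 5 risers. FTL, the ferritin light chain, which stores iron (chromosome 19, 48965309 to 48966879), had 2056, 1984 and 2132 FPKM without oxLDL and 3112, 3050.0 and 2780.0 FPKM with 50 µg/ml (log2 fold 0.53, SE 0.052, adjusted p = 6.51e-06). It was among the most abundant transcripts of the cells, and all treated libraries were higher. TFRC, the transferrin receptor, which brings iron in, rose from 55.05 ± 3.4 to 77.2 ± 0.70 FPKM (log2 fold 0.49, SE 0.055, adjusted p = 3.68e-05). AIFM2, which encodes the ferroptosis suppressor FSP1, rose from 2.95 ± 0.040 to 4.27 ± 0.36 FPKM (log2 fold 0.47, SE 0.067, adjusted p = 0.000404). GPX4, the peroxidase that clears lipid peroxides from membranes, fell from 251 ± 12 to 214 ± 10.1 FPKM (log2 fold -0.23, SE 0.052, adjusted p = 0.0133), and this call was lost in 2 of 18 other settings, without untreated replicate 3 or treated replicate 3 (highest adjusted p = 0.0747). FTH1, the ferritin heavy chain, was listed at 1.45 FPKM at 0 µg/ml, against 2058 for its protein partner FTL. FTH1 has many near-identical pseudogene copies, so its value is uncertain (log2 fold 0.74, SE 0.28, adjusted p = 0.119; adjusted p = 0.0412 with limma-voom). Of 6 metallothionein-list genes 0 rose and 1 fell, MT1E (log2 fold -0.25, adjusted p = 0.0158), whose call was lost in 3 of 18 other settings, without untreated replicate 3 or treated replicate 2 or 3 (highest adjusted p = 0.0820). MT1X (log2 fold -0.18, adjusted p = 0.0580), SLC30A1 (log2 fold -0.14, adjusted p = 0.190) and MT2A (log2 fold -0.11, adjusted p = 0.448) did not pass.

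The integrated stress response list holds the genes that ATF4 drives when translation is inhibited. In it 7 of 25 tested members rose and 1 fell (32% called, against 7.63% of all tested genes). SLC7A11, which is also an NRF2 target, led it, followed by CEBPB (from 27.6 ± 0.37 to 37.04 ± 1.5 FPKM, log2 fold 0.42, adjusted p = 0.000402), a transcription factor that overlaps CEBPB-AS1, and PPP1R15A (from 44.4 ± 1.2 to 56.98 ± 2.8 FPKM, log2 fold 0.36, adjusted p = 0.000479), the phosphatase subunit that restores translation. SLC3A2, the heavy chain that carries SLC7A11 to the membrane, rose from 88.7 ± 1.9 to 104 ± 4.2 FPKM (log2 fold 0.23, adjusted p = 0.00692). SLC7A5, the amino acid exchanger that also pairs with SLC3A2, fell from 72.5 ± 5.4 to 52.9 ± 2.1 FPKM (log2 fold -0.45, SE 0.090, adjusted p = 0.00579). ATF4 itself had 166 ± 2.4 and 172 ± 0.49 FPKM and did not pass the test (log2 fold 0.055, adjusted p = 0.206; 0.0307 with the pooled baseline of 1 and 2.5 µg/ml). The further risers were the cationic amino acid transporter SLC7A1 (log2 fold 0.24, adjusted p = 0.00741), the pseudokinase TRIB3 (log2 fold 0.22, adjusted p = 0.0104) and the serine synthesis enzyme PSAT1 (log2 fold 0.16, adjusted p = 0.0424). TRIB3 lost its call in 3 of 18 other settings, among them without untreated replicate 1 or treated replicate 3 (highest adjusted p = 0.0631). PSAT1 lost its call in 9 of 18 other settings, among them without any 1 untreated replicate or treated replicate 2 or 3 (highest adjusted p = 0.200). Of 10 aminoacyl tRNA synthetases limma called 0 (3 at an unadjusted p under 0.05, 0 with limma-voom), and all had log2 folds between -0.073 and 0.12, with GARS1 (log2 fold 0.12, adjusted p = 0.0788), YARS1 (log2 fold 0.073, adjusted p = 0.0872), WARS1 (log2 fold -0.073, adjusted p = 0.222) and LARS1 (log2 fold 0.094, adjusted p = 0.228) nearest to the threshold. Of 21 genes of the unfolded protein response limma called 0 as well (5 at an unadjusted p under 0.05, 2 with limma-voom), with log2 folds from -0.087 to 0.21. HSPA5, the endoplasmic reticulum chaperone that reports this response, had 232, 227 and 229 FPKM in the untreated libraries and 218, 220.3 and 216 FPKM in the treated ones (log2 fold -0.073, adjusted p = 0.139), and EDEM1 (log2 fold 0.17, adjusted p = 0.114), ERN1 (log2 fold 0.21, adjusted p = 0.115) and DNAJB9 (log2 fold 0.15, adjusted p = 0.116), which overlaps PNPLA8 and THAP5, did not pass.

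Of 16 tested heat shock genes 8 rose, by log2 folds of at most 0.26, and 0 fell (50% called, against 7.63% of all tested genes). HSPH1, a co-chaperone of HSP70, rose from 37.9 ± 1.9 to 45.5 ± 0.31 FPKM (log2 fold 0.26, SE 0.048, adjusted p = 0.00283). HSP90AA1, the inducible HSP90, rose from 948 ± 28 to 1101 ± 5.6 FPKM (log2 fold 0.22, SE 0.039, adjusted p = 0.00247), and BAG3, which links HSP70 to autophagy, rose from 40.6 ± 1.9 to 46.6 ± 0.45 FPKM (log2 fold 0.20, SE 0.035, adjusted p = 0.00241). The HSP90 partner FKBP4 rose too (log2 fold 0.14, adjusted p = 0.00979), a call lost in 1 of 18 other settings, without untreated replicate 1 (highest adjusted p = 0.0587). The others were HSPD1, AHSA1, HSPA8 and HSP90AB1, at log2 folds from 0.092 (HSP90AB1) to 0.16 (HSPD1). Of 18 other settings, 13 ended the call of HSP90AB1, 7 that of HSPA8, 4 that of HSPD1 and 2 that of AHSA1. For HSP90AB1 these included both other scalings, limma-voom and the fit without any 1 library. HSP90AA1 overlaps WDR20 and FKBP4 overlaps ITFG2-AS1. The list had 4 risers without replicate 1 or without replicate 3 at 0 µg/ml, and 5 without replicate 2 at 50 µg/ml. Proteasome genes had 5 of 30 up and 0 down (16.7% called), all by log2 folds of at most 0.16, with PSMD11 (log2 fold 0.14, adjusted p = 0.00412) the smallest in p. The others were PSMD3 (0.12), PSMD12 (0.14), PSMA1 (0.15) and PSMD14 (0.16), whose calls were lost in 3, 5, 6 and 8 of 18 other settings. This count fell to between 1 and 3 when any 1 of the 6 libraries was left out, to 1 without replicate 2 or 3 at 50 µg/ml.

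Receptors for modified lipoproteins went both ways. Of 19 listed by name 12 were in the table and 11 were tested, with a median log2 fold of 0.020. Of these 2 were up and 3 down (45.45% called, against 7.63% of all tested genes). CD36, MSR1, MARCO and TLR2 were not among the listed symbols, so the receptor in the title of the series could not be tested. OLR1, described above, fell most. CD14, a co-receptor of TLR4, fell from 1.08 ± 0.098 to 0.531 ± 0.076 FPKM (log2 fold -0.62, SE 0.14, adjusted p = 0.0146), with its call lost in 2 of 17 other settings, without untreated replicate 2 or treated replicate 2 (highest adjusted p = 0.0621). LRP8, an apolipoprotein E receptor, rose from 2.91 ± 0.19 to 4.18 ± 0.33 FPKM (log2 fold 0.46, SE 0.066, adjusted p = 0.000407). TLR4, the receptor that oxLDL engages together with CD36, rose from 0.790 ± 0.047 to 1.16 ± 0.032 FPKM (log2 fold 0.37, SE 0.073, adjusted p = 0.00538). Without replicate 2 at either dose this list had 2 falls.

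PLIN2, the main coat protein of lipid droplets outside adipose tissue (chromosome 9, 19108388 to 19127492), had 21.5, 22.00 and 23.4 FPKM without oxLDL and 33.8, 33.5 and 31.5 FPKM with 50 µg/ml (log2 fold 0.55, SE 0.042, adjusted p = 2.98e-07). The treated libraries were all above the untreated ones. In the lipid droplet and lipolysis list it was the sole riser of 17 tested, and PNPLA2, the first lipase of stored triglyceride, was the sole gene that fell (from 77.6 ± 1.9 to 68.7 ± 1.3 FPKM, log2 fold -0.17, adjusted p = 0.00839). SOAT1, which esterifies cholesterol for storage, had 13.6 ± 0.69 and 15.6 ± 0.89 FPKM and just missed the threshold (log2 fold 0.19, adjusted p = 0.0539), and the lipase MGLL did not pass (log2 fold 0.17, adjusted p = 0.119). Of the 17 tested members 11.8% were called, against 7.63% of all tested genes. Without replicate 2 at 0 µg/ml this list had 3 risers.

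Of 21 tested PPAR targets and fatty acid oxidation genes 6 rose and 0 fell (28.6% called, against 7.63% of all tested genes). The median log2 fold was 0.022, and 12 of 21 lay above 0. Beside ANGPTL4 and PLIN2 the called risers were steps of fatty acid import into mitochondria and of β-oxidation. CPT1A, the gatekeeper of that import (chromosome 11, 68754620 to 68844277), had 2.70, 2.88 and 2.85 FPKM in the untreated libraries and 4.64, 4.99 and 4.88 FPKM in the treated ones (log2 fold 0.69, SE 0.053, adjusted p = 3.43e-07). SLC25A20, the carnitine carrier of the inner membrane, rose from 5.51 ± 0.32 to 7.97 ± 0.78 FPKM (log2 fold 0.49, SE 0.066, adjusted p = 0.000222). ACAA2 (log2 fold 0.34, adjusted p = 0.00204) and ACADVL (log2 fold 0.20, adjusted p = 0.00718), enzymes of β-oxidation, rose as well.

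Most genes of cholesterol synthesis fell. Of 22 tested genes under SREBP2, 15 fell and 0 rose, with a median log2 fold of -0.27, against 3.79% falling and a median of 0.0045 over all genes. Between 10 and 14 fell when any 1 library was left out, with 10 in the fit without replicate 1 at 0 µg/ml. INSIG1, the sterol sensor partner that retains the SREBP2 complex (chromosome 7, 155297878 to 155310235), had 17.1, 16.6 and 18.4 FPKM untreated and 10.2, 10.6 and 9.38 FPKM treated (log2 fold -0.76, SE 0.095, adjusted p = 0.000113). HMGCS1, an early synthase of the pathway (chromosome 5, 43287470 to 43313412), had 10.01, 10.3 and 10.4 FPKM without oxLDL and 6.56, 6.68 and 6.45 FPKM with 50 µg/ml (log2 fold -0.61, SE 0.080, adjusted p = 0.000185). For both genes the groups were well apart and each was tight. IDI1 (from 15.8 ± 0.97 to 12.6 ± 0.10 FPKM, log2 fold -0.31, adjusted p = 0.00122) and MVD (from 23.1 ± 0.84 to 18.3 ± 0.71 FPKM, log2 fold -0.32, adjusted p = 0.00164), which make the isoprenoid units, fell as well. SREBF2, the gene of SREBP2, had 6.75 ± 0.32 and 5.96 ± 0.20 FPKM and did not pass the test (log2 fold -0.16, adjusted p = 0.121), though it did with limma-voom (adjusted p = 0.0358) and with the libraries at 1 and 2.5 µg/ml as baseline (adjusted p = 0.0281). Other genes that fell were MSMO1, STARD4, SQLE, ACAT2, CYP51A1, MVK, DHCR7 and FDPS, with log2 folds from -0.43 (MSMO1) to -0.20 (FDPS). Among them MVK lost its call in 5, FDPS in 4, CYP51A1 in 3, and SQLE and STARD4 in 1 of 18 other settings.

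The 2 promoters of this pathway are given by the same source and window, INSIG1 on the plus strand at chr7:155297628-155297927 and HMGCS1 on the minus strand at chr5:43313363-43313662. The search was for the sterol response element as TCACNCCAC on both strands, and neither window held a match, so no letters are in capitals. Of 17 promoters of tested cholesterol synthesis genes 1 held this pattern (SREBF2), against 1.15% of all promoters in the table.
INSIG1: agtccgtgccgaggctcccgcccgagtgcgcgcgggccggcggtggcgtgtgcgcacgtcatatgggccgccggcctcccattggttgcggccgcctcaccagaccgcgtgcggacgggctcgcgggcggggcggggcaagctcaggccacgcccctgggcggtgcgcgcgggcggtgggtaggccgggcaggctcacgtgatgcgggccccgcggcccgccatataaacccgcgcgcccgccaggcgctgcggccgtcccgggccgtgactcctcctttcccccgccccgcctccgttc
HMGCS1: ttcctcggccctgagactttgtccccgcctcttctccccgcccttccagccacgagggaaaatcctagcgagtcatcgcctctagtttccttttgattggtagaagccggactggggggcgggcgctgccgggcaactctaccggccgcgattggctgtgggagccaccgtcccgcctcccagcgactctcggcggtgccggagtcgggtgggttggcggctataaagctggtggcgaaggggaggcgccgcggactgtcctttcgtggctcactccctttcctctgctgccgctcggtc

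Of 17 tested genes of fatty acid synthesis under SREBP1, 5 fell and 1 rose (35.3% called, against 7.63% of all tested genes). SCD, the desaturase that makes oleate (chromosome 10, 100347233 to 100364826), had 43.4, 42.00 and 42.4 FPKM in the untreated libraries and 25.5, 27.4 and 23.7 FPKM in the treated ones (log2 fold -0.73, SE 0.091, adjusted p = 0.000107). FADS2, which desaturates polyunsaturated fatty acids and overlaps FADS1, fell from 27.3 ± 1.5 to 20.04 ± 0.82 FPKM (log2 fold -0.44, adjusted p = 0.000740), and SREBF1, the gene of SREBP1, which overlaps RAI1, fell from 10.3 ± 0.61 to 8.10 ± 0.26 FPKM (log2 fold -0.32, adjusted p = 0.00579). FASN, fatty acid synthase (log2 fold -0.28, adjusted p = 0.0181), and FADS3 (log2 fold -0.21, adjusted p = 0.0246) fell as well. FASN lost its call in 3 of 18 other settings, without untreated replicate 1 or 2 or treated replicate 1 (highest adjusted p = 0.0881), and FADS3 in 4 of 18 other settings, without untreated replicate 1 or 3 or treated replicate 1 or 2 (highest adjusted p = 0.115). The list had 3 falls without replicate 1 at either dose. The riser was ME1, which the NRF2 lists also hold. LXR targets, which oxidized sterols activate, had 0 of 13 up and 1 down (7.69% called). ABCA1, the cholesterol exporter, had 0.556, 0.630 and 0.513 FPKM untreated and 0.652, 0.787 and 0.754 FPKM treated. Its groups did not overlap, but it did not pass the test (log2 fold 0.21, SE 0.074, adjusted p = 0.103). With limma-voom on the recovered reads it did (adjusted p = 0.0415). NR1H2 (log2 fold 0.084, adjusted p = 0.220) and LPCAT3 (log2 fold 0.15, adjusted p = 0.412), which overlaps EMG1, did not pass either. ABCA7, another lipid exporter, fell (log2 fold -0.34, adjusted p = 0.0226), and lost its call in 4 of 18 other settings, without untreated replicate 1 or 2 or treated replicate 1 or 2 (highest adjusted p = 0.102).

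Lysosome and autophagy genes under TFEB had 9 of 31 up and 0 down, beside 3.83% rising and 3.79% falling over all genes. GLA, the lysosomal α-galactosidase, had 19.8, 20.97 and 21.4 FPKM without oxLDL and 28.5, 28.1 and 30.2 FPKM with 50 µg/ml (log2 fold 0.47, SE 0.045, adjusted p = 4.94e-06). CTSL, a lysosomal protease, rose from 36.96 ± 1.2 to 45.8 ± 2.1 FPKM (log2 fold 0.30, SE 0.041, adjusted p = 0.000237). ATP6V1C1, a subunit of the proton pump, rose from 20.3 ± 0.86 to 23.9 ± 0.084 FPKM (log2 fold 0.23, adjusted p = 0.00453). MAP1LC3B, the autophagosome protein LC3B, rose too (log2 fold 0.16, adjusted p = 0.00878), as did ATP6V1H, CTSD, LAMP2 and PSAP, at log2 folds from 0.083 (PSAP) to 0.17 (ATP6V1H). PSAP passed narrowly (log2 fold 0.083, adjusted p = 0.0491) and lost its call in 14 of 18 other settings, LAMP2 in 11, CTSD in 6 and ATP6V1H in 5. Another scaling (median-of-ratios) ended the calls of PSAP, LAMP2 and CTSD, and limma-voom that of PSAP. The list had 5 risers without replicate 1 or 2 at 0 µg/ml or replicate 1 at 50 µg/ml, and 6 without any of the other three.

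**Figure D3:**
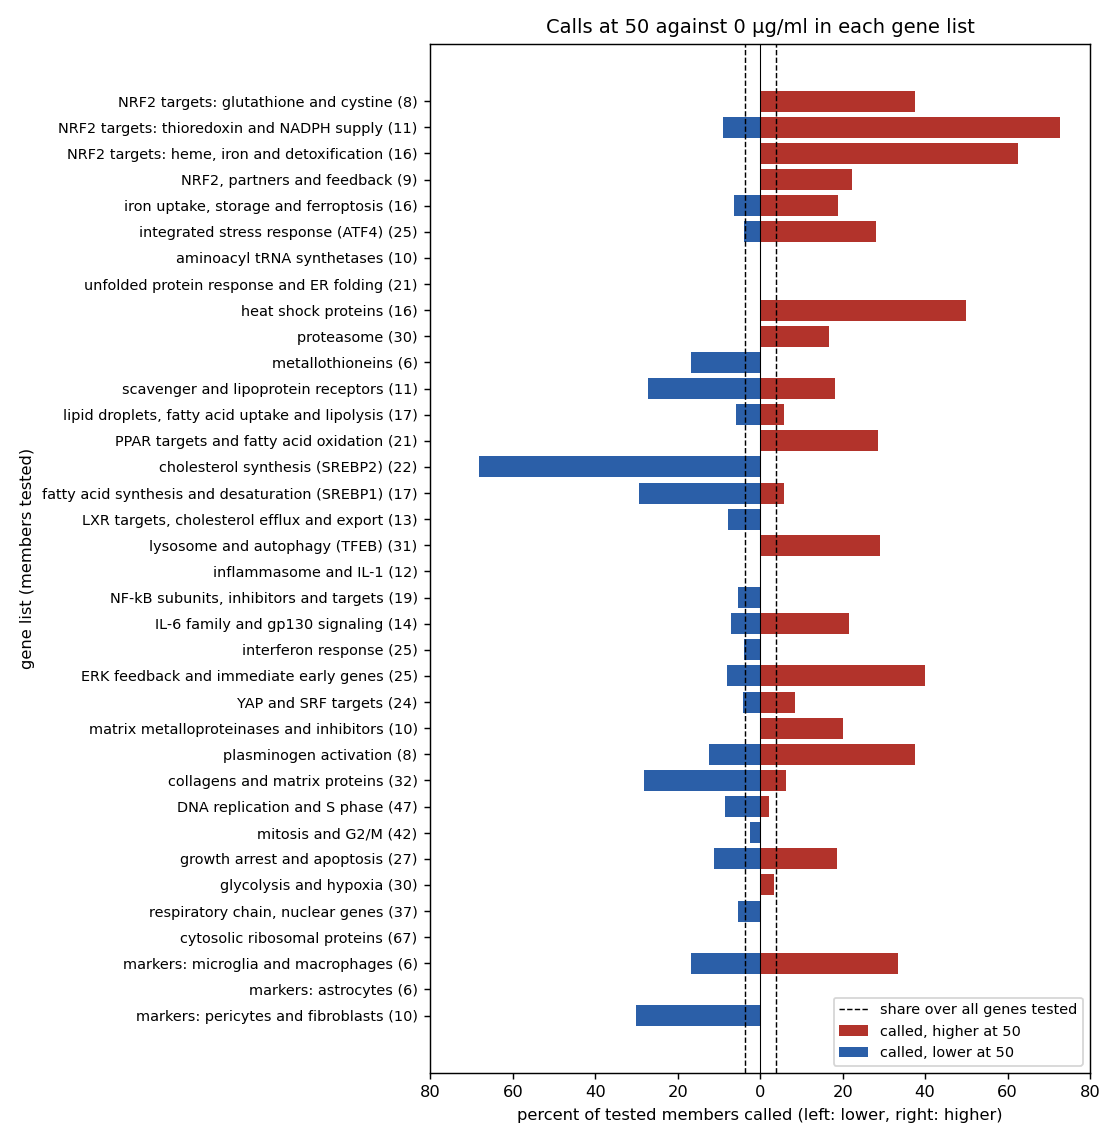
Percent of tested members of each gene list called lower (left) or higher (right) at 50 against 0 µg/ml, with the number of members tested in parentheses; dashed lines give the share over all 11841 genes, 3.79% lower and 3.83% higher. Lists with under 5 tested members are left out. Cholesterol synthesis has 15 of 22 members lower and 0 higher, and the NRF2 target lists have their calls on the higher side apart from 1 gene.

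Of 22 genes of the inflammasome and IL-1 list 14 were in the table and 12 were tested. Of these limma called 0 (3 at an unadjusted p under 0.05, 1 with limma-voom), against 7.63% of all tested genes. Their log2 folds ran from -0.15 to 0.35. NLRP3 was below the filter, with 0.206, 0.231 and 0.180 FPKM in the untreated libraries and 0.374, 0.310 and 0.414 FPKM in the treated ones. Its treated libraries were all higher than the untreated ones, but the gene was not tested. IL1B, the cytokine that the inflammasome matures (chromosome 2, 112829751 to 112836779), had 2.19, 1.65 and 2.15 FPKM untreated and 1.88, 1.92 and 1.79 FPKM treated. These groups overlapped and no difference was detectable at this depth (log2 fold -0.071, SE 0.11, adjusted p = 0.752). CASP1, the protease that cleaves it, had 0.617, 0.626 and 0.543 FPKM without oxLDL and 0.525, 0.557 and 0.667 FPKM with 50 µg/ml, also overlapping (log2 fold -0.017, adjusted p = 0.929), and PYCARD was not among the listed symbols. IL18, another substrate of CASP1, had 14.5, 13.7 and 14.4 FPKM in the untreated libraries and 16.2, 16.2 and 15.8 FPKM in the treated ones. Its groups did not overlap, but it did not pass the test (log2 fold 0.18, SE 0.091, adjusted p = 0.270). In limma on the 6 libraries of this comparison alone it did (adjusted p = 0.0262). NEK7 (log2 fold 0.19, adjusted p = 0.0761), CASP4 (log2 fold 0.35, adjusted p = 0.106) and GSDME (log2 fold -0.15, adjusted p = 0.116) did not pass, nor did the thioredoxin inhibitor TXNIP (log2 fold -0.092, adjusted p = 0.572).

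NF-kB genes had 0 of 19 up and 1 down (5.26% called, against 7.63% of all tested genes). The one that fell was NFKBIA, the inhibitor that NF-kB itself induces, from 23.7 ± 2.2 to 17.8 ± 0.97 FPKM (log2 fold -0.40, SE 0.090, adjusted p = 0.0118), with its call lost in 2 of 18 other settings, without untreated replicate 3 or treated replicate 3 (highest adjusted p = 0.0657). RELA (log2 fold 0.11, adjusted p = 0.0536), the chemokine CCL2 (log2 fold -0.38, adjusted p = 0.0561) and BIRC3 (log2 fold -0.34, adjusted p = 0.115) did not pass. Interferon response genes had 0 of 25 up and 1 down (4% called), with 20 of the 25 below 0 and a median log2 fold of -0.16. Over all genes 6148 of 11841 lay above 0, with a median of 0.0045. The called gene was IFIT2 (log2 fold -0.32, adjusted p = 0.0431), which overlaps LIPA and lost its call in 7 of 18 other settings, among them without any 1 untreated replicate or treated replicate 1 or 2 (highest adjusted p = 0.169). IFIT3 (log2 fold -0.23, adjusted p = 0.0772), RIGI (log2 fold -0.18, adjusted p = 0.0885) and OASL (log2 fold -0.28, adjusted p = 0.0933) did not pass. With the 6 libraries at 1 and 2.5 µg/ml as the baseline in place of those at 0, 11 interferon response and 4 NF-kB genes were called lower.

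Of 14 tested genes of the IL-6 family and its gp130 signaling 3 rose and 1 fell (28.6% called, against 7.63% of all tested genes). IL11, a cytokine of this family (chromosome 19, 55364382 to 55370463), had 32.3, 32.01 and 34.02 FPKM untreated and 50.9, 49.4 and 51.3 FPKM treated, a narrow spread in both groups (log2 fold 0.62, SE 0.031, adjusted p = 1.47e-09). LIF, a second ligand that signals through gp130 (chromosome 22, 30240453 to 30246759), had 8.28, 7.996 and 8.25 FPKM without oxLDL and 5.36, 5.54 and 4.84 FPKM with 50 µg/ml (log2 fold -0.60, SE 0.11, adjusted p = 0.00407). The first was higher and the second lower in every treated library. The other risers were the receptors IL6R (from 0.734 ± 0.094 to 1.09 ± 0.038 FPKM, log2 fold 0.37, adjusted p = 0.0171) and OSMR (from 10.4 ± 0.66 to 12.6 ± 1.1 FPKM, log2 fold 0.25, adjusted p = 0.0365). IL6R lost its call in 3 of 18 other settings, without untreated replicate 3 or treated replicate 2 or 3 (highest adjusted p = 0.0826). OSMR, which overlaps RICTOR, lost its call in 7 of 18 other settings, among them without any 1 untreated replicate or treated replicate 2 or 3 (highest adjusted p = 0.169). The list had 1 riser without untreated replicate 3 or treated replicate 2 or 3.

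Of 25 tested feedback and immediate early genes of the ERK pathway 10 rose and 2 fell (48% called, against 7.63% of all tested genes). The median log2 fold was 0.23. DUSP5, a nuclear phosphatase that turns off ERK (chromosome 10, 110497907 to 110511533), had 11.4, 10.96 and 11.9 FPKM in the untreated libraries and 17.4, 17.3 and 18.7 FPKM in the treated ones (log2 fold 0.62, SE 0.052, adjusted p = 1.08e-06). DUSP4, a related phosphatase, rose from 4.54 ± 0.17 to 7.10 ± 0.37 FPKM (log2 fold 0.59, SE 0.073, adjusted p = 8.92e-05), ETV5, an ETS factor induced by ERK, rose from 11.4 ± 0.39 to 17.5 ± 0.91 FPKM (log2 fold 0.59, SE 0.079, adjusted p = 0.000196), and SPRY4, a Sprouty inhibitor of the pathway, rose from 1.35 ± 0.098 to 2.19 ± 0.31 FPKM (log2 fold 0.54, SE 0.083, adjusted p = 0.000852). EGR1, an early growth response factor (chromosome 5, 138465479 to 138469303), fell, from 10.7, 8.37 and 10.1 FPKM to 5.50, 5.26 and 3.94 (log2 fold -0.92, SE 0.21, adjusted p = 0.0113), with its call lost in 2 of 18 other settings, without untreated replicate 1 or treated replicate 3 (highest adjusted p = 0.0633). The further risers were DUSP6, ETV4, SPRY2, PHLDA1, SPRED1 and the AP-1 subunit FOSL1, at log2 folds from 0.23 (FOSL1) to 0.47 (DUSP6). SPRY2 and SPRED1 lost their calls in 3 and PHLDA1 in 2 of 18 other settings, and the list had 7 to 11 risers without any 1 library. JUND, an AP-1 subunit, fell from 36.7 ± 1.6 to 26.6 ± 0.90 FPKM (log2 fold -0.46, adjusted p = 0.00198). Of 24 targets of YAP and SRF 2 rose and 1 fell, beside 3.83% rising and 3.79% falling over all genes. The falls numbered 4 in the fit of the 6 libraries alone, with the replicate block and with the pooled baseline of 1 and 2.5 µg/ml, 3 with limma-voom, and 0 with either other scaling or without any 1 library. CCN2, a matricellular protein, rose from 204 ± 7.2 to 273 ± 5.0 FPKM (log2 fold 0.42, SE 0.040, adjusted p = 4.67e-06), and ANKRD1, a nuclear cofactor, rose from 129.8 ± 5.2 to 171 ± 2.2 FPKM (log2 fold 0.40, SE 0.038, adjusted p = 4.94e-06). The tropomyosin TPM2 fell (log2 fold -0.18, adjusted p = 0.0437) but lost its call in 10 of 18 other settings, among them without any 1 untreated replicate or any 1 treated replicate (highest adjusted p = 0.175), and TPM1 did not pass (log2 fold -0.31, adjusted p = 0.0629; it overlaps TPM1-AS).

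Of 32 tested collagens and matrix proteins 9 fell and 2 rose (34.4% called, against 7.63% of all tested genes). The median log2 fold was -0.13. Beside TINAGL1, THBS2, a thrombospondin, fell from 10.2 ± 0.28 to 7.79 ± 0.34 FPKM (log2 fold -0.37, SE 0.064, adjusted p = 0.00212), and COL7A1, the collagen of anchoring fibrils, fell from 5.38 ± 0.41 to 3.24 ± 0.53 FPKM (log2 fold -0.66, SE 0.14, adjusted p = 0.0102). The risers were EFEMP1, a fibulin (from 12.3 ± 0.58 to 16.7 ± 0.56 FPKM, log2 fold 0.43, adjusted p = 1.93e-05), and LOX, which cross-links collagen and overlaps SRFBP1 (from 23.5 ± 0.58 to 30.5 ± 2.4 FPKM, log2 fold 0.37, adjusted p = 0.000271). SPARC, LOXL1, COL1A1, BGN, LOXL2 and LAMB2 fell by log2 folds from -0.36 (SPARC) to -0.24 (LAMB2). LAMB2 lost its call in 8, BGN and LOXL2 in 6, LOXL1 in 5 and SPARC in 4 of 18 other settings. The summed FPKM of the list was 2256 to 2419 at 0 µg/ml and 1945 to 2055 at 50 µg/ml. The falls numbered 3 without replicate 1 at either dose, 4 without replicate 3 at either dose and 5 without replicate 2 at 50 µg/ml. Of 16 marker genes of pericytes and fibroblasts 12 were in the table and 10 were tested. Of these 3 fell and 0 rose (30% called). The summed FPKM of the marker list was 1519 to 1610 at 0 µg/ml and 1436 to 1463 at 50 µg/ml. The 3 that fell were THY1 (from 96.5 ± 2.8 to 78.8 ± 2.8 FPKM, log2 fold -0.29, adjusted p = 0.00247), COL1A1 (from 496 ± 25 to 396 ± 9.6 FPKM, log2 fold -0.32, adjusted p = 0.0231) and PDGFRB (from 8.76 ± 0.46 to 6.64 ± 0.47 FPKM, log2 fold -0.38, adjusted p = 0.0263). COL1A1 lost its call in 4 of 18 other settings, without untreated replicate 1 or 3 or treated replicate 1 or 3 (highest adjusted p = 0.102). PDGFRB lost its call in 4 of 18 other settings, without untreated replicate 1 or 2 or treated replicate 1 or 3 (highest adjusted p = 0.121). CNN1 did not pass (log2 fold -0.37, adjusted p = 0.0666). All libraries were of the HMC3 line, so these genes are transcripts of that culture and not a count of pericytes or fibroblasts. COL1A1 is in both the matrix and the marker list. In bulk RNA, fewer cells with a transcript and less of it per cell cannot be told apart, and this was not tested.

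In the plasminogen system 3 of 8 tested genes rose and 1 fell (50% called, against 7.63% of all tested genes). Beside SERPINE2 these were PLAUR, the receptor of urokinase (from 25.9 ± 0.59 to 37.6 ± 3.8 FPKM, log2 fold 0.53, adjusted p = 0.00243), SERPINB8 (log2 fold 0.28, adjusted p = 0.0311) and, falling, urokinase itself, PLAU (from 11.9 ± 0.46 to 9.40 ± 0.55 FPKM, log2 fold -0.32, adjusted p = 0.00680). The SERPINB8 call was lost in 4 of 18 other settings, without untreated replicate 1 or 3 or treated replicate 1 or 3 (highest adjusted p = 0.120). Receptor and ligand of the urokinase pair were thus called in opposite directions. Of 10 metalloproteinases and inhibitors 2 rose and 0 fell (20% called). The risers were MMP1 and MMP14, a membrane-type collagenase (from 23.1 ± 0.45 to 27.2 ± 2.0 FPKM, log2 fold 0.22, adjusted p = 0.0302). MMP14 lost its call in 4 of 18 other settings, without any 1 untreated replicate or treated replicate 3 (highest adjusted p = 0.159), so this list had 0 risers without replicate 1 or 3 at 0 µg/ml or replicate 3 at 50 µg/ml. TIMP3 (log2 fold -0.20, adjusted p = 0.0528) and ADAMTS5 (log2 fold -0.23, adjusted p = 0.0651) did not pass.

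Of 47 tested genes of DNA replication 4 fell and 1 rose (10.6% called, against 7.63% of all tested genes). Of the 47, 38 lay below 0, whereas over all tested genes 6148 of 11841 lay above 0. MCM7, a subunit of the replicative helicase (chromosome 7, 100092728 to 100101397), had 172, 178 and 181 FPKM untreated and 144, 137 and 135 FPKM treated, with the groups well apart (log2 fold -0.35, SE 0.032, adjusted p = 3.08e-06). It overlaps AP4M1. RFC4, of the clamp loader, fell by less (log2 fold -0.17, adjusted p = 0.00575) and overlaps EIF4A2, and POLD1 (log2 fold -0.15, adjusted p = 0.0361) and MCM6 (log2 fold -0.14, adjusted p = 0.0491) fell. POLD1 lost its call in 6 of 18 other settings, among them without untreated replicate 1 or 2 or treated replicate 1 or 2 (highest adjusted p = 0.151). MCM6 lost its call in 8 of 18 other settings, among them without any 1 untreated replicate or any 1 treated replicate (highest adjusted p = 0.204). The list had 8 falls with median-of-ratios or upper-quartile scaling, limma-voom or the pooled baseline of 1 and 2.5 µg/ml, and 2 without a variance trend, without untreated replicate 1 or 2 or without treated replicate 1. The riser, ORC6 (log2 fold 0.14, adjusted p = 0.0261), lost its call in 5 of 18 other settings, among them without untreated replicate 1 or 3 or treated replicate 2 or 3 (highest adjusted p = 0.128). Of the 40 replication promoters in the RefSeq set, 10 (25%) held the E2F motif TTTCCCGC on either strand, against 2.88% of tested genes. MCM7 was among the 10, and the called genes RFC4, POLD1, MCM6 and ORC6 were not. Over all called falls 3.5% of promoters held it, against 2.9% for genes not called. Of 42 genes of mitosis 1 fell and 0 rose (2.38% called; 4 falls with that pooled baseline), CDC25B (log2 fold -0.10, adjusted p = 0.0486), whose call was lost in 10 of 18 other settings, among them without any 1 untreated replicate or any 1 treated replicate (highest adjusted p = 0.193). KIF20A (log2 fold -0.095, adjusted p = 0.0549), which overlaps BRD8 and CDC23, MYBL2 (log2 fold -0.13, adjusted p = 0.135) and CCNB1 (log2 fold -0.064, adjusted p = 0.201) did not pass.

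The list of growth arrest and apoptosis genes had 5 of 27 up and 3 down (29.6% called, against 7.63% of all tested genes). CDKN1A, the cell cycle inhibitor p21, rose from 48.8 ± 3.2 to 58.1 ± 1.8 FPKM (log2 fold 0.25, SE 0.056, adjusted p = 0.0108), with its call lost in 1 of 18 other settings, without untreated replicate 2 (highest adjusted p = 0.0541), and AEN, an apoptotic nuclease, rose from 9.23 ± 0.29 to 10.96 ± 0.44 FPKM (log2 fold 0.24, adjusted p = 0.00492). PLK2, a polo-like kinase, fell from 252 ± 7.5 to 204 ± 4.6 FPKM (log2 fold -0.30, SE 0.034, adjusted p = 3.51e-05). Further called members were the risers PMAIP1 (log2 fold 0.26, adjusted p = 0.0416), TNFRSF10B (log2 fold 0.21, adjusted p = 0.0150) and MDM2 (log2 fold 0.19, adjusted p = 0.0224). PMAIP1 lost its call in 7 of 18 other settings, among them without untreated replicate 1 or 3 or treated replicate 1 or 3 (highest adjusted p = 0.189). The TNFRSF10B call was lost in 3 of 18 other settings, without untreated replicate 1 or 3 or treated replicate 3 (highest adjusted p = 0.0791), and that of MDM2 in 6 of 18 other settings, among them without untreated replicate 2 or 3 or treated replicate 2 or 3 (highest adjusted p = 0.120). The risers numbered 3 without replicate 1 or 2 and 2 without replicate 3 at 0 µg/ml, and 2 without replicate 3 at 50 µg/ml. The falls numbered 1 without replicate 3 at either dose.

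Of 30 genes of glycolysis and hypoxia 1 rose and 0 fell (3.33% called, against 7.63% of all tested genes). The riser was the glucose transporter SLC2A3 (from 6.32 ± 0.43 to 7.72 ± 0.16 FPKM, log2 fold 0.27, adjusted p = 0.0174). Its call was lost in 3 of 18 other settings, without untreated replicate 2 or treated replicate 2 or 3 (highest adjusted p = 0.0791). GPI (log2 fold 0.19, adjusted p = 0.0674), BNIP3L (log2 fold -0.12, adjusted p = 0.0702), which overlaps PNMA2, and PFKFB4 (log2 fold -0.25, adjusted p = 0.0732) did not pass. Nuclear genes of the respiratory chain had 2 of 37 down and 0 up (5.4% called), with 35 of 37 below 0 and a median of -0.068. Over all tested genes 6148 of 11841 lay above 0. The genes called were NDUFA1 (log2 fold -0.23, adjusted p = 0.0413) and ATP5MC1 (log2 fold -0.15, adjusted p = 0.0477). NDUFA1, which overlaps RNF113A, lost its call in 8 of 18 other settings, among them without any 1 untreated replicate or treated replicate 2 or 3 (highest adjusted p = 0.923). With the libraries at 1 and 2.5 µg/ml as baseline the NDUFA1 difference was -0.012. ATP5MC1 lost its call in 13 of 18 other settings, among them without any 1 untreated replicate or treated replicate 2 or 3 (highest adjusted p = 0.286). Of 67 cytosolic ribosomal protein genes limma called 0 (10 at an unadjusted p under 0.05, 0 with limma-voom), and 63 lay below 0 with a median of -0.067 and a range of -0.23 to 0.011.

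Among microglia and macrophage markers 2 of 6 tested rose and 1 fell (50% called, against 7.63% of all tested genes). The summed FPKM of this list was 84.1 to 85.0 at 0 µg/ml and 94.1 to 101.7 at 50 µg/ml. The transcription factor RUNX1 rose (log2 fold 0.17, adjusted p = 0.0430), and CD14 fell. The RUNX1 call was lost in 7 of 18 other settings, among them without any 1 untreated replicate or treated replicate 2 or 3 (highest adjusted p = 0.208). CD68, a lysosomal protein of macrophages, had 12.4, 12.4 and 11.9 FPKM without oxLDL and 14.7, 14.2 and 16.9 FPKM with 50 µg/ml. Its treated libraries were all higher, but it just missed the threshold (log2 fold 0.30, SE 0.092, adjusted p = 0.0556). It passed in 4 of 18 other settings, namely the 6 libraries alone (adjusted p = 0.0212), the replicate block (0.0478), limma-voom (0.0248) and the pooled baseline of 1 and 2.5 µg/ml (0.0114). Among 6 astrocyte, 2 neuron, 2 oligodendrocyte and 1 endothelial marker tested limma called 0, as did limma-voom, with 1, 1, 1 and 0 of them at an unadjusted p under 0.05. The smallest adjusted p of each list was that of FGFR3 (log2 fold -0.22, adjusted p = 0.164) for astrocytes, SNAP25 (log2 fold 0.34, adjusted p = 0.0826) for neurons, CNP (log2 fold -0.068, adjusted p = 0.163), which overlaps DNAJC7, for oligodendrocytes and TIE1 (log2 fold -0.041, adjusted p = 0.872) for endothelium.

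Whether the level at 50 µg/ml was already that of the highest dose was tested by the contrast of 100 against 50 µg/ml, in which 0.304% of genes were called. This contrast shares the libraries at 50 µg/ml with the main one. Of the 454 genes that rose, 26 were higher still at 100 µg/ml and 0 were lower, and of the 449 that fell, 7 were lower still and 1 was higher. The 26 held the PPAR target ANGPTL4 and the leading NRF2 targets. ANGPTL4 had 8.70 ± 0.94 FPKM at 100 µg/ml (log2 fold over 50 µg/ml 1.55, adjusted p = 0.000110), HMOX1 had 43.4 ± 2.6 (log2 fold 0.84, adjusted p = 6.27e-06) and SLC7A11 had 9.15 ± 0.66 (log2 fold 0.63, adjusted p = 7.51e-05). IL11 (log2 fold 0.45, adjusted p = 1.17e-06), PLIN2 (log2 fold 0.27, adjusted p = 0.00364) and FTL (log2 fold 0.37, adjusted p = 0.00146) were higher at 100 than at 50 µg/ml too.

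HMGCS1 (6.56 ± 0.12 FPKM at 50 and 6.41 ± 0.27 at 100 µg/ml, log2 fold -0.032, adjusted p = 0.966), INSIG1 (log2 fold 0.036, adjusted p = 0.967), OLR1 (log2 fold -0.13, adjusted p = 0.932) and NPPB (log2 fold -0.072, adjusted p = 0.968) did not pass between 50 and 100 µg/ml, which does not show that their levels were equal. MMP1 (log2 fold 0.092, adjusted p = 0.976) did not pass either. TINAGL1 (log2 fold -0.32, adjusted p = 0.00533), MCM7 (log2 fold -0.23, adjusted p = 0.00145) and the Wnt ligand WNT7B (log2 fold -0.40, adjusted p = 0.0287) were lower still at 100 µg/ml. METTL26, a gene of the methyltransferase-like family, was the one that fell at 50 (from 51.7 ± 0.16 to 45.5 ± 0.85 FPKM, log2 fold -0.18, adjusted p = 0.00283) and was higher at 100 µg/ml (log2 fold 0.17, adjusted p = 0.0351).

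**Figure D4:**
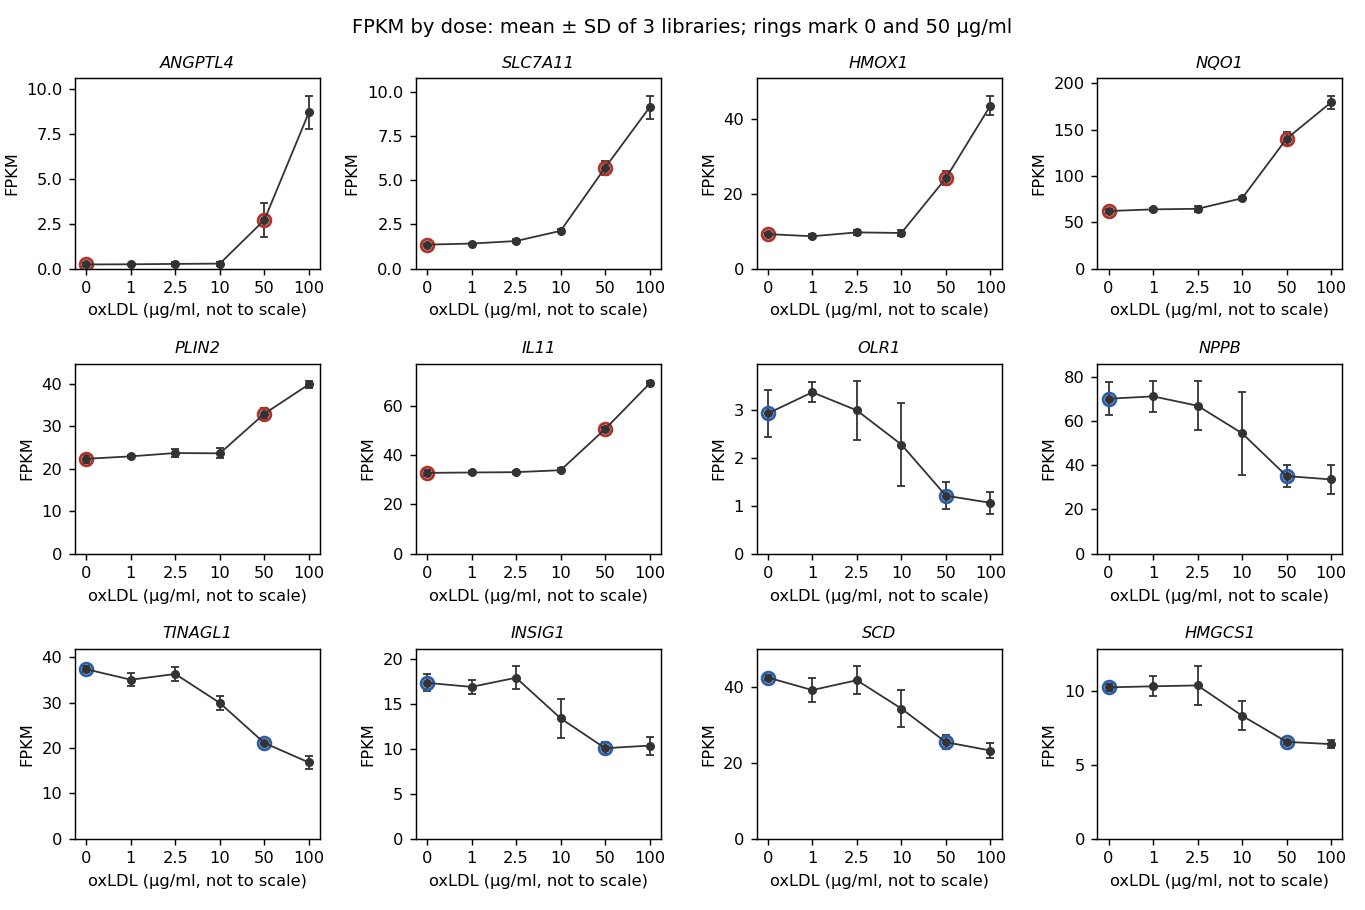
Mean FPKM at each of the 6 doses for 12 genes, with error bars of 1 SD over 3 libraries; doses are spaced evenly, and rings mark 0 and 50 µg/ml. ANGPTL4, SLC7A11 and HMOX1 climb between 50 and 100 µg/ml, whereas the means of HMGCS1 at those doses are close (6.56 ± 0.12 and 6.41 ± 0.27).

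The called genes were then followed in a contrast that uses none of the 6 libraries, 100 against 2.5 µg/ml, in which 18.3% of all genes were called (8.36% up, 9.97% down). Both contrasts come from the same fit and share its estimate of the spread. Of the 454 genes that rose at 50 µg/ml 361 (79.5%) also rose there and 450 had a positive difference. Of the 449 that fell 338 (75.3%) also fell and 438 had a negative difference. No gene was called in opposite directions. For SLC7A11 the difference of 100 against 2.5 µg/ml was 2.23 (adjusted p = 4.83e-13), for HMGCS1 -0.65 (adjusted p = 3.57e-05), for OLR1 -1.16 (adjusted p = 0.000554) and for EGR1 -1.03 (adjusted p = 0.00228).

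**Figure D5:**
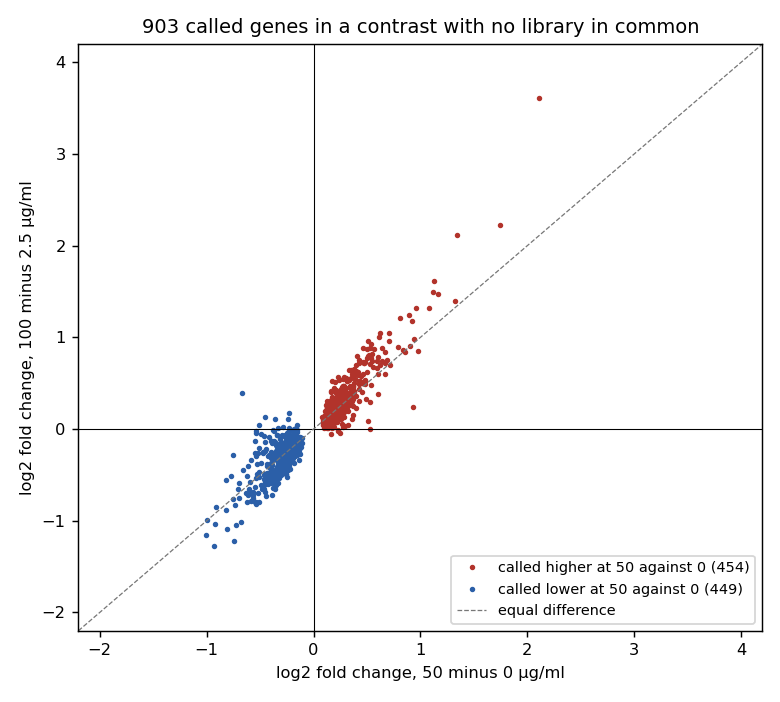
Log2 fold of 50 against 0 µg/ml (horizontal) and of 100 against 2.5 µg/ml (vertical) for the 903 called genes, 1 point per gene, with a dashed line of equal difference. Of the called rises 450 of 454 lie above 0 on the vertical axis, and of the called falls 438 of 449 lie below it.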

How the data were processed

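The authors deposited 1 table of FPKM values for 13992 genes in 18 libraries of HMC3 cells, with no read counts. Per the labels' protocols, mRNA was taken from TRIzol RNA with poly-T beads, made into libraries with NEBNext Ultra and sequenced as paired reads of 150 bases on a NovaSeq. Per the submitters' processing notes, HISAT2 2.0.5, featureCounts, DESeq2 and build hg38 were used, with no role or order given. The annotation release, strand setting and rule for listing genes are not given in the sources used here. A whole number of reads could be recovered from the deposited FPKM steps for 13992 of 13992 genes (tolerance 0.05 reads), which gave totals of 18972658 to 32834978 reads on listed genes.

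Groups follow the dose in the labels. Values were taken as log2(FPKM + 0.5), and genes with at least 0.5 FPKM in 3 of the 6 libraries at 0 and 50 µg/ml were kept. One mean per dose was fitted to all 18 libraries with limma 3.58.1 (R 4.3.3, variance trend, 12 residual degrees of freedom), and p-values were Benjamini-Hochberg adjusted over 11841 genes. The fit was tested on simulated data. It called 42.4% of genes changed by an absolute log2 fold of 0.25, 93.8% at 0.5 and 98.5% at 1, with 7 false calls. The simulation gave every gene the same relative spread beyond read sampling, so these shares need not hold for the real libraries. The genes and lists were chosen with earlier results of these data known. Named by rule were the 12 largest rises and 12 largest falls among called genes with a mean of at least 1 FPKM at either dose and no overlap between doses (clone names and unnamed loci left out), up to 4 members of each list with the smallest adjusted p, and CD36, NLRP3, IL1B, CASP1, PYCARD, IL18, OLR1, PLIN2, HMOX1, ABCA1 and HMGCS1. Every other gene given with a value, such as the further called members of a list, NFE2L2, ATF4, SREBF2, FTH1, TXNIP, CD68, PGD, WNT7B and METTL26, was chosen after its values were seen. Some members counted in the lists are not reported here by name. Gene coordinates and promoters are from RefSeq (GRCh38.p14, the assembly that hg38 names), in which 13728 of 13992 symbols were matched. Same-numbered libraries at 0 and 50 µg/ml did not deviate together, so the numbers were not treated as pairs. The alternatives tried were other pseudocounts, filters, scalings, fits and baselines, limma-voom on the recovered reads, and leaving out each library in turn.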

Additional observations from a re-analysis of the deposited data

How the results depend on the processing

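With the libraries at 1 and 2.5 µg/ml pooled as the baseline in place of those at 0, 1426 genes were called (698 up, 728 down). Of these, 801 were called in the same direction against 0 µg/ml, and 1082 at 100 against 2.5 µg/ml. With this baseline both contrasts use the libraries at 2.5 µg/ml. The 1082 is thus not a count without shared libraries and cannot be set beside the 699 of the main fit. Leaving out 1 library gave 460 to 659 calls, 217 to 341 up and 221 to 318 down, with 377 to 495 in the contrast without shared libraries and 23 to 34 that also differed between 100 and 50 µg/ml. The fewest calls, 460, came without replicate 1 at 0 µg/ml, followed by 476 without replicate 3 at 50 µg/ml and 498 without replicate 3 at 0 µg/ml, which leave fewer samples in a group. Both pseudocounts, the filters, the scalings, the 6 libraries alone, the fit without a variance trend and limma-voom kept the total within 1.5 times, with limma-voom highest at 1241 calls and the fit without a trend lowest at 769. With the replicate number as a block 966 genes were called, 851 of them shared in the same direction. Same-numbered libraries had correlations of -0.097, -0.032 and -0.19 in their deviations, so the labels share only a number and no pairing was assumed. Of 176 called genes followed one by one, 107 passed the threshold under each of the 18 alternatives and 69 lost their call under at least 1. The CASP1 log2 fold, never past the threshold, was -0.017 and ranged from -0.072 to 0.021 when 1 library was left out, turning to 0.0032 without replicate 2 at 0 µg/ml and to 0.021 without replicate 1 at 50 µg/ml. The cause of these changes was not tested. Genes of low FPKM carry the largest standard errors, so small differences in them were not detectable at this depth.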

Other observations

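The genes below were chosen after their values were seen and stand as values with no explanation. SMAD3, a transcription factor that TGF-β receptors activate, had 9.54, 10.1 and 9.77 FPKM untreated and 6.46, 6.85 and 6.37 FPKM treated (log2 fold -0.54, SE 0.082, adjusted p = 0.000687). The treated libraries were all lower and the groups did not overlap. LTBP3, which binds latent TGF-β in the matrix, fell from 6.27 ± 0.56 to 4.40 ± 0.36 FPKM (SD, n = 3; log2 fold -0.47, adjusted p = 0.00208). BMP4, a ligand of the same superfamily, fell from 9.45 ± 0.35 to 6.80 ± 0.77 FPKM (log2 fold -0.45, adjusted p = 0.000423), and CDKN2B, a cell cycle inhibitor that TGF-β induces, fell from 9.98 ± 0.39 to 6.81 ± 0.70 FPKM (log2 fold -0.52, adjusted p = 0.00354). The ligand TGFB2 had 21.1, 18.99 and 18.3 FPKM without oxLDL and 13.6, 15.3 and 12.4 FPKM with 50 µg/ml (log2 fold -0.49, adjusted p = 0.0329), a call lost in 5 of 18 other settings, without any 1 untreated replicate or treated replicate 1 or 3 (highest adjusted p = 0.145). IGFBP3, a secreted binding protein of insulin-like growth factors, had 18.1, 13.9 and 18.1 and 11.3, 11.8 and 10.7 FPKM (log2 fold -0.54, adjusted p = 0.0394), a call lost in 6 of 18 other settings, among them without untreated replicate 1 or 3 or any 1 treated replicate (highest adjusted p = 0.143).

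CD274, which encodes PD-L1, had 7.69, 6.65 and 7.37 FPKM in the untreated libraries and 10.3, 10.4 and 10.6 FPKM in the treated ones (log2 fold 0.50, SE 0.053, adjusted p = 1.74e-05). IL7R, the receptor chain of interleukin 7, had 16.8, 15.8 and 15.7 FPKM untreated and 22.6, 21.99 and 21.8 FPKM treated (log2 fold 0.45, SE 0.042, adjusted p = 3.89e-06). In both genes every treated library lay above every untreated one. NT5E, the enzyme CD73 that makes extracellular adenosine, rose from 4.57 ± 0.17 to 6.79 ± 0.17 FPKM (log2 fold 0.52, adjusted p = 3.76e-05), and CD44, the receptor of hyaluronan, rose from 84.3 ± 0.85 to 116 ± 8.0 FPKM (log2 fold 0.46, adjusted p = 0.00198). VSIR, which encodes the checkpoint protein VISTA, fell from 1.96 ± 0.046 to 1.13 ± 0.11 FPKM (log2 fold -0.60, adjusted p = 0.000192). NPR3, the clearance receptor of natriuretic peptides, fell from 6.64 ± 0.48 to 3.92 ± 0.57 FPKM (log2 fold -0.70, adjusted p = 0.0218), with its call lost in 3 of 18 other settings, without untreated replicate 1 or 3 or treated replicate 3 (highest adjusted p = 0.105).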
